A study of Mus musculus with 32 samples.

Results

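Type I cadherins and catenins were examined in forebrain (Fb) and midbrain (Mb) tissue of mouse embryos at embryonic day 9.5 that carried or lacked type II cadherins. The 10 genes were Cdh1, Cdh2, Cdh3, Cdh4, Ctnna1, Ctnna2, Ctnnb1, Ctnnd1, Ctnnd2 and Jup, and each was found by its Ensembl identifier among the 48576 identifiers measured in all 32 libraries. The question was whether the remaining adherens junction genes are expressed differently once type II cadherins are gone. The strain was B6C3F1. The mutant line was founded in B6C3F1 eggs and bred on, a background that the study calls B6C3 hybrid. In each tissue 6 WT libraries were compared with 4 TKO6-8-11 libraries (Cdh6, Cdh8 and Cdh11 mutated, with exencephaly), 3 DKO8-11 libraries (Cdh8 and Cdh11, with exencephaly) and 3 DKO6-8 libraries (Cdh6 and Cdh8, with the cranial defect, an elongated midbrain without exencephaly). Mutants carried small germline CRISPR/Cas9 deletions with a frameshift, inside the exon that holds the translation start, so the genes were lost in every cell. WT embryos came from WT matings and mutants from matings of triple heterozygous mice, and thus WT were not littermates of the mutants. In 12 DKO files the column heading and the sample record name opposite DKO groups, and the headings were followed. The labels give Cdh6 and Cdh8 for the cranial defect group, whereas the study's methods name Cdh8 and Cdh11.

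Classic cadherins join neighbouring cells by binding the same or a related cadherin across the gap, with calcium holding the ectodomain rigid. Their cytoplasmic tail binds beta-catenin or its relative plakoglobin (Jup), which recruits alpha-catenin and through it actin, while delta-catenins bind nearer the membrane and keep the cadherin at the surface. When the neural plate forms, E-cadherin (Cdh1) gives way to N-cadherin (Cdh2) in neuroepithelium and stays on in surface ectoderm. P-cadherin (Cdh3) is known from epidermis and placenta, R-cadherin (Cdh4) from retina and brain, and both belong with Cdh1 and Cdh2 to the type I group.

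Short coding sequences are shown because the first motif is in all 4 type I cadherins and in none of the targeted genes, and the second is in beta-catenin and plakoglobin. They were read from GENCODE M21 transcripts on GRCm38, 5′ to 3′ on the coding strand. In the cadherins the capitals mark the codons of His-Ala-Val, the adhesion signature of the outermost cadherin repeat, which occurred once in each of Cdh1, Cdh2, Cdh3 and Cdh4 and in none of Cdh6, Cdh8 and Cdh11. Among 21562 protein-coding genes 5.07% hold it. All stretches lie within a coding exon, exon 6 in the 3 cadherins.
Cdh1, chr8:106656824-106656850, plus strand: ctctattctCATGCCGTGtcatcaaat
Cdh3, chr8:106537074-106537100, plus strand: ctttatggcCACGCTGTAtctgagaat
Cdh4, chr2:179847220-179847246, plus strand: ctccgagccCACGCGGTGgatatgaac
In beta-catenin and plakoglobin the capitals mark the codons of the Asp-Ser-Gly-X-X-Ser degron, at which the phosphorylated protein is tagged for breakdown. A match to this pattern of residues is encoded in 1.88% of the same genes, among them Cdh6. Whether the pattern acts as a degron in those other genes was not tested. Ctnnb1 also holds 1 His-Ala-Val. The degron lies in exon 3 of Ctnnb1 and exon 2 of Jup.
Ctnnb1, chr9:120950596-120950625, plus strand: tacttgGATTCTGGAATCCATTCTggtgcc
Jup, chr11:100386291-100386320, minus strand: acctacGACTCGGGCATCCACTCCggcgtc
Over their whole length the proteins encoded by Ctnna1 and Ctnna2 were 81.9% identical, those of Ctnnb1 and Jup 68.8% and those of Cdh2 and Cdh4 67.4%. Cdh1 and Cdh3 were 56.9% identical and Ctnnd1 and Ctnnd2 40.9%. Cdh2 shared 40.6% of its residues with Cdh6, 40.9% with Cdh8 and 41.7% with Cdh11.

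FPKM is a level per length of transcript and per mapped fragments of the library, so levels can be set side by side between genes. Libraries held an estimated 1.94 to 3.23 M fragments (median 2.605). In the Mb, TKO6-8-11 libraries held 1.94 to 2.32 M fragments and WT libraries 2.40 to 2.92. DKO8-11 Mb libraries held 3.08 to 3.23 M, above WT, and DKO6-8 Mb libraries 2.47 to 2.74. The targeted genes served as a check of the labels, although the deletions leave most of each transcript in place. In the Mb, Cdh6 was 0.345 to 0.388 FPKM in 3 TKO6-8-11 libraries and 3.10 in the library labelled TKO6-8-11 replicate 3, within the WT range of 1.04 to 3.55. In the Fb it was 3.74 in the library labelled replicate 3 and 0.572 to 1.84 in the other TKO6-8-11 libraries, against 2.04 to 3.997 in WT. The labels have Cdh6 mutated in DKO6-8. Its FPKM in that Mb was 1.29 to 2.11, within the WT range. In that Fb it was 3.43, 1.72 and 2.78, 1 of them below WT. In DKO8-11, in which the labels have it intact, the range was 1.86 to 3.12 in the Mb and 3.62 to 4.34 in the Fb. These values do not settle which genes were mutated in DKO6-8. Cdh11 in the Mb was 14.5 to 16.6 in TKO6-8-11 and 17.6 to 18.7 in DKO8-11. It was 16.6 to 27.2 in DKO6-8 and 17.9 to 28.7 in WT. In the Fb, Cdh11 was 19.8 to 21.4, 17.1 to 18.7, 12.7 to 25.3 and 19.5 to 25.3 in the same order of groups. The labels have Cdh8 mutated in every mutant group. In that order, Cdh8 in the Mb was 0.851 to 2.32, 1.63 to 2.49, 1.0048 to 1.47 and 1.14 to 10.1. In the Fb, Cdh8 was 0.911 to 3.15, 0.423 to 0.702, 0.449 to 1.44 and 0.84 to 1.96. The 3.15 was TKO6-8-11 Fb replicate 4, above all WT Fb libraries. The 6 midbrain markers summed to 37.1 to 206.7 FPKM in WT Mb and 7.48 to 12.8 in WT Fb, the lowest Mb sum being that of replicate 5. No call of the 10 genes against WT was gained or lost without the TKO6-8-11 replicate 3 libraries, and values that they moved are given beside the result.

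Cdh2 was the prevailing type I cadherin in both tissues, and Ctnnb1 was the most abundant of the 10 genes. In WT Fb the order by mean FPKM was Ctnnb1, Ctnna1, Cdh2, Ctnnd1, Cdh1, Jup, Cdh4, Cdh3, Ctnnd2 and Ctnna2. Each of the 4 highest stood above the next without overlap of library values, and from Cdh1 downward every neighbour in the order overlapped the next. In WT Mb the order was Ctnnb1, Ctnna1, Cdh2, Ctnnd1, Jup, Ctnna2, Cdh4, Ctnnd2, Cdh1 and Cdh3, and Ctnna1 overlapped Cdh2 there. Thus Cdh1 and Cdh3 moved to the bottom of the order in the Mb. For depth, the values of Cdh3 in the Mb rested on about 7 to 35 fragments per library and those of Ctnna2 in the Fb on about 7 to 39, whereas Ctnnb1 had about 1944 or more in every library.

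**Figure D1:**
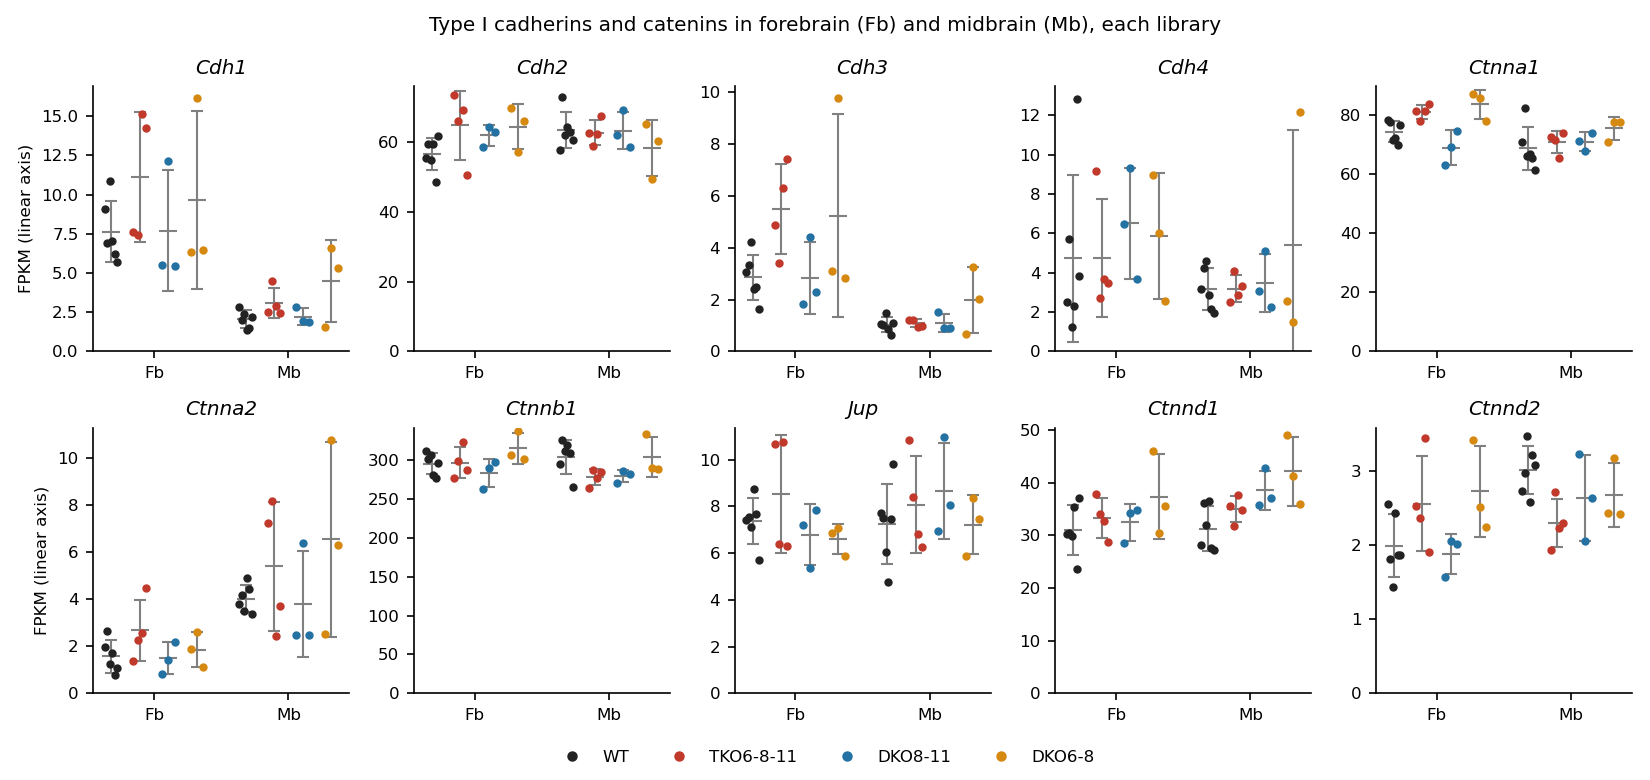
FPKM (linear axes, each from 0) of the 10 genes in every Fb and Mb library, coloured by genotype; bars are mean ± SD, cut at 0 where they would pass it. Cdh1 and Cdh3 points sit lower in Mb than Fb and Ctnna2 points higher, while mutant and WT points of Ctnnb1 lie within 263 to 337 FPKM in both tissues.

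None of the 10 genes passed the test in any of the 6 comparisons of mutants with WT. With limma on log2(FPKM + 1), all 10 were tested each time, and none of the 60 gene-by-comparison values had an adjusted p (Benjamini-Hochberg over all genes tested) under 0.05. At an unadjusted p under 0.05 there were 5, where 5.46 to 8.66% of all tested genes reached it in the 6 comparisons. Calls were rare over all genes as well. The share of tested genes called was 0.0898% in the TKO6-8-11 Mb, 0.0903% in the DKO8-11 Mb and 0.0375% in the DKO6-8 Mb. In the Fb it was 0.0603% for TKO6-8-11, 0.0759% for DKO8-11 and 0.0378% for DKO6-8, so 0 of 10 is what the background gives. The limits on change differ by gene. For the abundant genes the intervals were narrow. For Cdh1, Cdh3, Cdh4 and Ctnna2 they leave room for a change of log2(FPKM + 1) above 1 in at least 1 comparison. Since 1 is added before the logarithm, the limits understate the possible FPKM change of low genes, among them Ctnnd2.

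N-cadherin (Cdh2), the main cadherin of the neuroepithelium (chromosome 18, 16588877 to 16809246, minus strand), had 57.9, 73.1, 62.1, 64.4, 62.9 and 60.7 FPKM in the WT Mb. It had 62.6, 59.0, 62.3 and 67.4 in the TKO6-8-11 Mb, 62.1, 69.3 and 58.8 in the DKO8-11 Mb and 65.3, 49.6 and 60.4 in the DKO6-8 Mb. The mutant libraries overlapped WT, and only the second DKO6-8 library lay below all WT values. The log2 fold changes in the Mb were -0.01 (95% interval -0.19 to 0.17) for TKO6-8-11, -0.00 (-0.22 to 0.21) for DKO8-11 and -0.12 (-0.37 to 0.12) for DKO6-8. In the Fb, WT values were 55.6, 59.5, 55.1, 59.5, 48.7 and 61.7, and 7 of the 10 mutant values lay above them all. Those of TKO6-8-11 were 73.5, 66.1, 69.4 and 50.6, those of DKO8-11 58.6, 64.5 and 62.9 and those of DKO6-8 69.97, 57.3 and 66.1. The Fb differences were 0.18, 0.13 and 0.18 (log2) in the same order of groups, none past the test (adjusted p = 0.674, 0.811 and 0.655, limma).

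E-cadherin (Cdh1, chromosome 8, 106603351 to 106670246, plus strand) and P-cadherin (Cdh3, 106510891 to 106557297, plus strand) are neighbouring genes, 46.1 kb apart. They also lie 3.82 and 3.73 Mb (megabases) from the targeted Cdh11, and the part of this linkage in their levels was not tested. In the Fb, Cdh3 was 3.05, 3.32, 4.22, 2.43, 2.47 and 1.66 FPKM in WT and 4.89, 3.42, 6.32 and 7.43 in TKO6-8-11. Hence 3 of 4 TKO6-8-11 libraries lay above all WT libraries, and the log2 fold change was 0.75 ± 0.23 (SE, adjusted p = 0.372, limma). The unadjusted p of limma, 0.00706, was the smallest of all mutant comparisons of the members. Without TKO6-8-11 replicate 3 it was 0.68 (adjusted p = 0.518). Cdh1 was 9.05, 6.91, 10.8, 7.05, 6.21 and 5.73 in the WT Fb and 7.64, 7.45, 15.2 and 14.3 in the TKO6-8-11 Fb, with 2 libraries above all WT. Its log2 fold change was 0.45 ± 0.23 (SE), and 0.29 (adjusted p = 0.763, limma) without replicate 3, so neither passed the test. In the DKO6-8 Mb, Cdh1 was 1.57, 6.61 and 5.31, against 2.86, 1.98, 2.41, 1.34, 1.49 and 2.18 in the WT Mb. Its log2 fold change there was 0.73 ± 0.33 (SE, adjusted p = 0.743, limma), 1.21 without DKO6-8 replicate 1, 0.43 without replicate 2 and 0.09 with the groups taken from the sample records.

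Surface ectoderm markers moved with these values, a list of 10 genes that includes Epcam, Krt8 and Krt18, none at 0 in every library of a group. Their summed FPKM ranged from 90.0 to 155.5 in the WT Fb, 133.6 to 336.6 in the TKO6-8-11 Fb, 128.4 to 227.8 in the DKO8-11 Fb and 121.2 to 311.1 in the DKO6-8 Fb. In the Mb the ranges were 34.7 to 57.0 in WT, 33.8 to 53.1 in TKO6-8-11, 48.3 to 60.5 in DKO8-11 and 29.0 to 113.2 in DKO6-8. In the TKO6-8-11 Fb none of the 10 markers passed the test. At an unadjusted p under 0.05 (limma) there were 6, beside 8.66% of all tested genes. The median log2 fold change of the 10 was 0.55, against 0.02 over all genes tested. Other lists moved too. The TKO6-8-11 Fb library with the most Cdh3 (replicate 4) had sums of 107 FPKM for forebrain markers (162.9 to 224 in the WT Fb), 26.7 for endothelium (43.2 to 57.9) and 77.0 for cranial mesenchyme and neural crest (106.5 to 121). DKO6-8 Fb replicate 2, with the most Cdh3 of all libraries, had 127, 26.4 and 68.1. In the DKO6-8 Mb, 4 of 7 markers of cranial mesenchyme and neural crest had an unadjusted p under 0.05, beside 6.69% of all genes. None of them passed the test (limma), and their median log2 fold change was 0.62. In the DKO6-8 Fb, 3 of 4 neuron markers had an unadjusted p under 0.05, beside 8.44% of all genes, and none passed. The median log2 fold change of these neuron markers was 0.78. The part of these tissues in the Cdh1 and Cdh3 values was not tested. In bulk tissue, fewer cells of a type and less RNA per cell cannot be told apart.

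Across the 16 Fb libraries, Cdh1 followed the summed markers with Pearson's r = 0.88 (adjusted p = 0.0012, two-sided permutation test) and Spearman's rho = 0.71 (adjusted p = 0.0576, permutation test). For Cdh3 the values were r = 0.85 (adjusted p = 0.0012, permutation test) and rho = 0.71 (adjusted p = 0.0576, permutation test). The raw permutation p of r was 4e-05 for Cdh1 and 3e-05 for Cdh3, and that of rho 0.00282 and 0.00288. Leaving out the 2 libraries farthest from the median of the markers gave r = 0.80 and 0.70. In the 16 Mb libraries r was 0.83 for Cdh1 and 0.84 for Cdh3 (adjusted permutation p = 0.0024 and 0.0016), and rho was 0.63 and 0.62 (adjusted permutation p = 0.116 for both). Raw permutation p in the Mb was 0.00016 and 8e-05 for r and 0.0101 and 0.0116 for rho. Without the 2 farthest libraries r fell to 0.54 for both, so the Mb relation rests in good part on those libraries. Cdh2 went the opposite way in the Mb, with r = -0.75 (p = 0.00081, adjusted p = 0.00972, permutation test), rho = -0.77 (p = 0.00061, adjusted p = 0.0366, permutation test) and r = -0.58 without the 2 farthest. In the Fb, Cdh2 showed r = -0.17 (p = 0.529, adjusted p = 0.722, permutation test) and rho = -0.18 (p = 0.498, adjusted p = 0.807, permutation test). In all, 60 such relations of the 10 genes with 3 marker lists were computed, and none with the neuron list or the list of cranial mesenchyme and neural crest passed. These libraries share tissue and genotype groups. The permutations ran over all 16 libraries of a tissue without regard to genotype group, so their p-values do not allow for differences between groups. The relations were chosen after seeing the data.

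**Figure D2:**
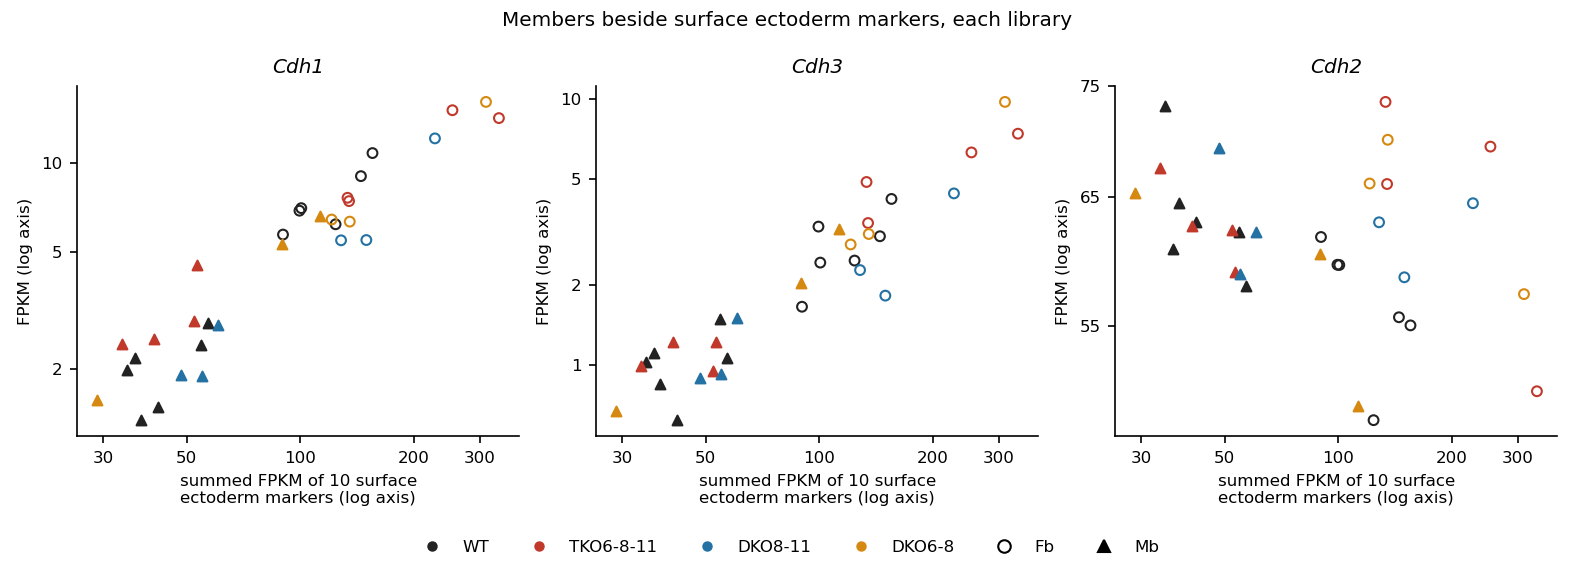
FPKM of Cdh1, Cdh3 and Cdh2 against the summed FPKM of 10 surface ectoderm markers (log axes), 1 point per library, open circles Fb and filled triangles Mb. Cdh1 and Cdh3 rise along the marker axis within each tissue, and the Mb points of Cdh2 descend along it.

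R-cadherin (Cdh4, chromosome 2, 179442431 to 179899373, plus strand) was the most uneven of the 10 between libraries of a tissue, with a coefficient of variation of 62.1% over the 16 Fb and 67.8% over the 16 Mb libraries. In the WT Fb it was 2.51, 5.69, 1.26, 2.31, 12.8 and 3.84 FPKM, a wider spread than any difference between groups. A single DKO6-8 Mb library stood at 12.1, beside 2.58 and 1.497. Log2 fold changes against WT ranged from 0.04 to 0.58, with intervals reaching from -0.88 to 1.70 over the 6 comparisons.

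Alpha-E-catenin (Ctnna1, chromosome 18, 35118859 to 35254779, plus strand), the actin link of most epithelia, was 61.4 to 82.3 FPKM in the WT Mb and 65.2 to 77.7 in the 10 mutant Mb libraries. In the WT Fb its values were 78.2, 77.7, 71.4, 72.0, 69.9 and 76.7. Those of the DKO6-8 Fb were 86.9, 85.8 and 77.9, 2 of them above all WT, and the log2 fold change was 0.17 ± 0.07 (SE, adjusted p = 0.58, limma). Alpha-N-catenin (Ctnna2, chromosome 6, 76881637 to 77979699, minus strand), its neural relative, was 3.78, 4.17, 3.49, 4.89, 4.45 and 3.37 in the WT Mb. The mutants spread more widely, with 7.24, 8.17, 2.43 and 3.71 in TKO6-8-11, 2.49, 6.39 and 2.49 in DKO8-11 and 2.52, 10.8 and 6.32 in DKO6-8. In each mutant Mb group some libraries lay above and others below all WT libraries, the only low one of TKO6-8-11 being replicate 3. The TKO6-8-11 log2 fold change was 0.24 ± 0.26 (SE, adjusted p = 0.861, limma), and 0.50 (adjusted p = 0.667) without that replicate.

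Beta-catenin (Ctnnb1, chromosome 9, 120929216 to 120960507, plus strand) is both the cadherin's partner and the effector of Wnt signalling. It was 295, 325, 311, 318, 309 and 265 FPKM in the WT Mb and 264, 286, 277 and 284 in the TKO6-8-11 Mb. The groups overlapped. Over the 6 comparisons its log2 fold changes ran from -0.13 to 0.09, and the 95% intervals from -0.30 to 0.24, the narrowest of the 10 genes. Plakoglobin (Jup, chromosome 11, 100368958 to 100397763, minus strand), which serves both adherens junctions and desmosomes, was 4.76 to 9.84 in the WT Mb and 5.88 to 10.96 in the mutant Mb. Its log2 fold changes ran from -0.13 to 0.24.

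p120-catenin (Ctnnd1, chromosome 2, 84600071 to 84650765, minus strand), which holds cadherins at the membrane, had WT Mb levels of 28.1, 36.1, 31.9, 36.5, 27.6 and 27.1 FPKM. Mutant Mb levels were 35.6, 31.7, 37.6 and 34.9 in TKO6-8-11, 35.7, 42.7 and 37.1 in DKO8-11 and 49.1, 41.3 and 36.0 in DKO6-8. Thus 2 of 3 libraries in either DKO group exceeded all WT. The log2 fold change was 0.30 ± 0.13 (SE, adjusted p = 0.901) in DKO8-11, 0.42 ± 0.14 (SE, adjusted p = 0.586) in DKO6-8 and 0.17 ± 0.11 (SE, adjusted p = 0.744) in TKO6-8-11 by limma. These comparisons share the WT libraries. Delta-catenin of neurons (Ctnnd2, chromosome 15, 30172593 to 31029341, plus strand, 17.00 Mb from the targeted Cdh6) was 2.74, 2.98, 3.48, 2.59, 3.22 and 3.08 in the WT Mb and 1.94, 2.73, 2.23 and 2.30 in the TKO6-8-11 Mb. There, 3 of 4 libraries lay below all WT libraries, and the log2 fold change was -0.28 ± 0.14 (SE, adjusted p = 0.63, limma), and -0.28 without replicate 3.

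**Figure D3:**
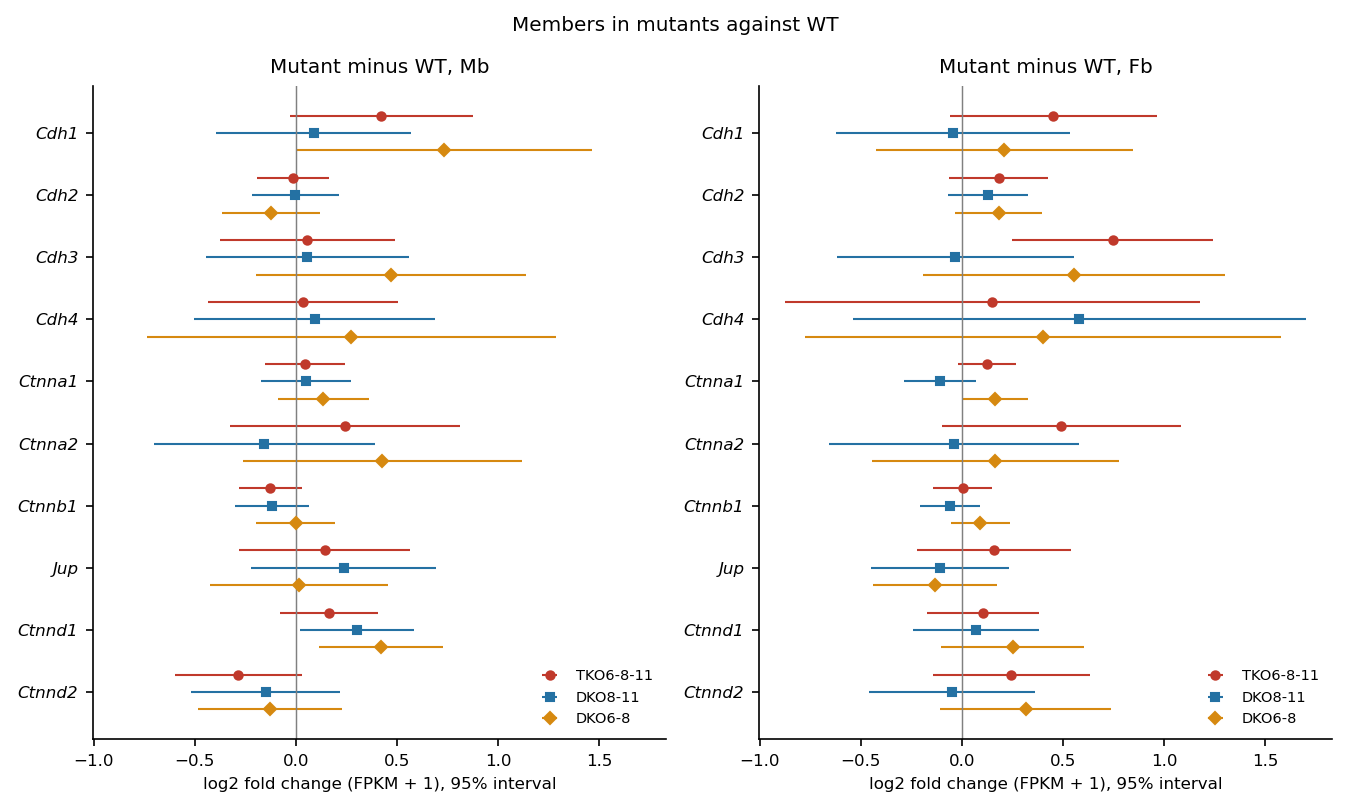
Log2 fold change (FPKM + 1) of each gene in mutants against WT with 95% intervals, Mb on the left and Fb on the right, 3 mutant groups per gene. Ctnnb1 has intervals between -0.30 and 0.24 and Cdh4 between -0.88 and 1.70; none of the 60 values passed the adjusted threshold.

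Whether the mutant effect differed between Mb and Fb was tested as an interaction. None of the 10 genes passed in TKO6-8-11, DKO8-11 or DKO6-8, where 0.0149%, 0% and 0.00746% of all tested genes were called. At an unadjusted p under 0.05 there were 2, 0 and 1 of the 10, beside 6.5%, 3.88% and 4.83% of all tested genes. The 2 of TKO6-8-11 were Ctnnd2 at -0.53 ± 0.20 (log2, SE, adjusted p = 0.734, limma) and Cdh3 at -0.69 ± 0.28 (log2, SE, adjusted p = 0.738, limma). Without both replicate 3 libraries they were -0.41 and -0.59 (adjusted p = 0.821 for both, limma). That of DKO6-8 was Cdh2, at -0.31 ± 0.14 (log2, SE, adjusted p = 0.99, limma). For DKO8-11 the count over all genes was 0 of 13349, with 518 at an unadjusted p under 0.05.

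Between tissues, 3 of the 10 genes differed in WT, where 8.26% of all tested genes were called. Cdh1 was lower in the Mb at 2.04 ± 0.57 FPKM (SD, n = 6) than in the Fb at 7.63 ± 1.9 (SD, n = 6), a log2 fold change of -1.498 ± 0.17 (SE, adjusted p = 6.76e-05, limma). Cdh3 was likewise lower, at 1.02 ± 0.29 against 2.86 ± 0.88 (log2 fold change -0.91 ± 0.18, SE, adjusted p = 0.00534, limma). Ctnna2 was higher in the Mb, at 4.02 ± 0.59 against 1.57 ± 0.69 (log2 fold change 1.002 ± 0.18, SE, adjusted p = 0.00254, limma). For all 3 genes no WT Mb library overlapped a WT Fb library. These 3 were called on the same values, and how many of all tested genes lay apart this way was not counted. Without WT Mb replicate 5 the log2 fold changes were -1.44, -0.85 and 0.98 (adjusted p = 0.000223, 0.0134 and 0.00758, limma) in the same order. Because 1 is added before the logarithm, these folds understate the change of low genes. Ctnnd2 was also above the Fb in every Mb library, at 3.02 ± 0.32 against 1.997 ± 0.42, yet missed the threshold at 0.43 (log2, adjusted p = 0.0647, limma). Cdh2 was 63.5 ± 5.2 in the Mb and 56.7 ± 4.7 in the Fb (adjusted p = 0.245, limma), and the adjusted p of the other 5 genes was 0.423 or higher.

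The same directions were tested in the mutant embryos, in which each tissue contrast has its own libraries. In TKO6-8-11, Cdh1 was 2.52, 4.50, 2.92 and 2.44 FPKM in the Mb and 7.64, 7.45, 15.2 and 14.3 in the Fb, a log2 fold change of -1.53 (adjusted p = 0.0177, limma). Cdh3 was 1.22, 1.21, 0.944 and 0.987 against 4.89, 3.42, 6.32 and 7.43, a log2 fold change of -1.60 (adjusted p = 0.00588, limma). For both genes the tissues were fully apart, a count not taken over all genes, and 2 of 10 genes were called beside 2.89% of all genes. Without both replicate 3 libraries neither passed, with log2 fold changes of -1.35 (adjusted p = 0.134) for Cdh1 and -1.497 (adjusted p = 0.0733) for Cdh3. With the Fb replicate 3, Mb replicate 1, Mb replicate 3 or Mb replicate 4 alone left out, Cdh1 had adjusted p = 0.0537, 0.056, 0.0539 and 0.0594. With the replicate number as a block it had adjusted p = 0.0699, and Cdh3 0.0386 (limma). Ctnna2 was 5.39 ± 2.8 in the Mb and 2.67 ± 1.3 in the Fb (SD, n = 4), with overlap (adjusted p = 0.465, limma).

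In DKO8-11 none of the 10 genes passed, and 2.58% of all genes did. At an unadjusted p under 0.05 there were 3 of the 10, beside 14.44% of all genes. Its Cdh1 values were 2.83, 1.91 and 1.89 in the Mb and 5.49, 12.2 and 5.48 in the Fb (log2 fold change -1.37, adjusted p = 0.089, limma). In DKO6-8 none passed either (0.507% of all genes did), and 1 of the 10 had an unadjusted p under 0.05, beside 10.09% of all genes. There Cdh1 overlapped between tissues, with 1.57, 6.61 and 5.31 in the Mb and 6.34, 16.2 and 6.45 in the Fb (log2 fold change -0.98, adjusted p = 0.593, limma). Ctnna2 was higher in the Mb by a log2 fold change of 0.88 in DKO8-11 and 1.26 in DKO6-8 (adjusted p = 0.346 and 0.417, limma). The tissue difference of Cdh1, Cdh3 or Ctnna2 was not shown to differ between mutants and WT, since the interaction is the test of that difference.

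**Figure D4:**
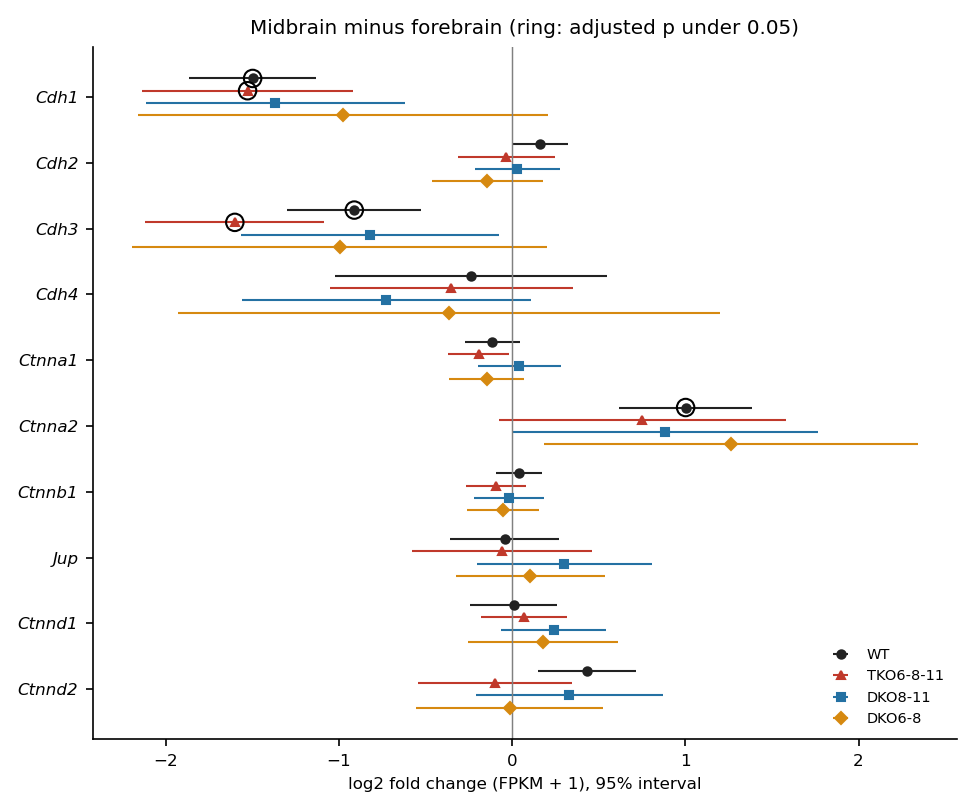
Log2 fold change (FPKM + 1) of Mb against Fb with 95% intervals for each gene in the 4 genotypes; a ring marks an adjusted p under 0.05. Rings stand at Cdh1, Cdh3 and Ctnna2 in WT and at Cdh1 and Cdh3 in TKO6-8-11.

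Other markers differed between the tissues along with these genes. Of the surface ectoderm list 6 of 8 tested genes were lower in the WT Mb, and 4 of 5 neuron markers were higher. Over all tested genes 8.26% were called. The median log2 fold changes of these lists were -1.22 and 1.76, against -0.00 over all genes. Their summed FPKM was 34.7 to 57.0 in the WT Mb against 90.0 to 155.5 in the WT Fb for surface ectoderm, and 30.8 to 72.3 against 6.76 to 12.4 for neurons. No marker of either list was at 0 in every library of a group. Further lists differed as well. Of 6 neuroepithelium markers 3 were higher in the WT Mb (median log2 fold change 0.43). Of 7 tested markers of cranial mesenchyme and neural crest 1 was higher and 2 were lower (median -0.49). The part of these cell types in the difference of Cdh1, Cdh3 or Ctnna2 was not tested.

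The mix of paralogs is described by the share of each gene in its family's FPKM. Cdh2 made up 91.1 ± 2.2% (SD, n = 6) of the 4 type I cadherins in the WT Mb and 78.8 ± 5.4% in the WT Fb. Cdh1 made up 2.95 ± 0.93% in the WT Mb and 10.6 ± 2.8% in the WT Fb. In the mutant Mb the mean share of Cdh2 was 89.5% in TKO6-8-11, 90.4% in DKO8-11 and 83.4 ± 8.9% in DKO6-8 (SD, n = 3), where the libraries ranged from 75.6 to 93.1%. Among alpha-catenins, Ctnna2 held 5.55 ± 0.83% in the WT Mb and 2.04 ± 0.81% in the WT Fb. Ctnnb1 held 97.6% of the sum with Jup in the WT Mb and 97.6% in the WT Fb, and 97.0 to 97.9% in the means of the mutant groups. Ctnnd2 held 8.94 ± 1.5% of the delta-catenins in the WT Mb and 6.10 ± 1.3% in the WT Fb. In the Mb of the mutants its mean share was 6.22% in TKO6-8-11, 6.51% in DKO8-11 and 6.07% in DKO6-8.

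**Figure D5:**
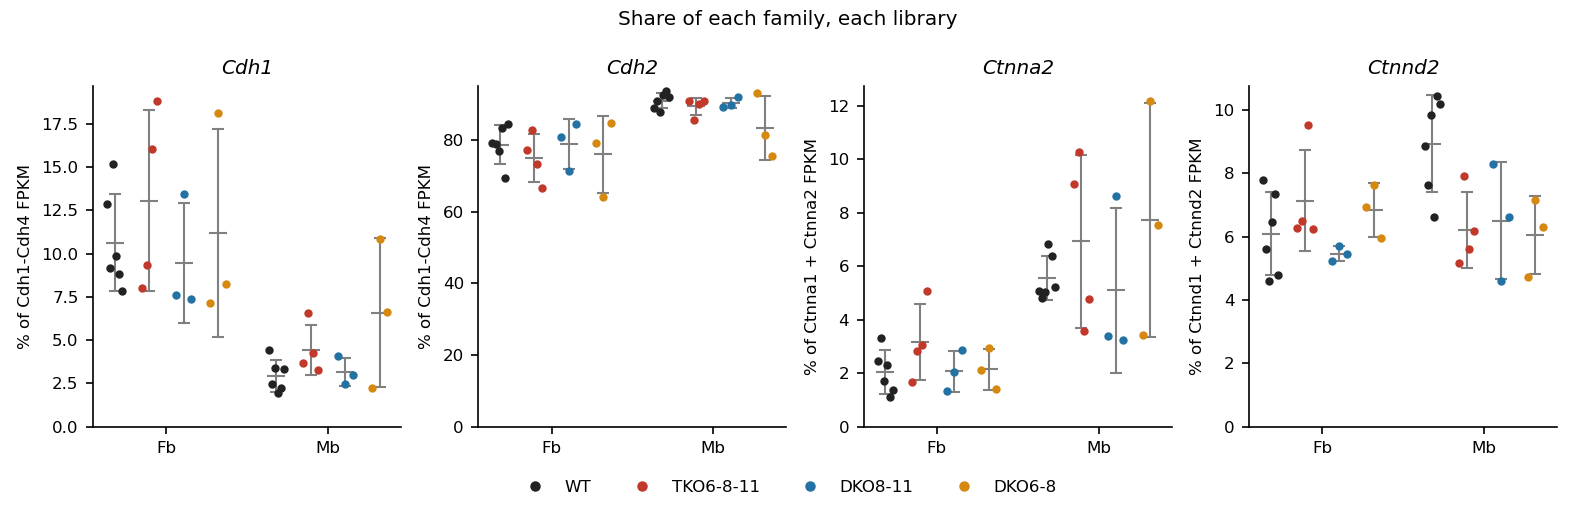
Share (%) of Cdh1 and Cdh2 among the 4 type I cadherins, of Ctnna2 among alpha-catenins and of Ctnnd2 among delta-catenins, in every library with mean ± SD. The WT Mb shares of Cdh2 (88.0 to 93.7%) lie above those of the WT Fb (69.4 to 84.6%).

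The wider junction machinery was followed through lists of genes chosen by function. Of 20 junction partners (actin linkers, phosphatases and proteases that act on cadherins), 19 were tested in each mutant comparison and none was called. None was called either among the desmosome genes, the transcriptional repressors of Cdh1 or the beta-catenin destruction complex. Of the 9 desmosome genes only 3 to 5 were tested, depending on the comparison. Unadjusted p under 0.05 was reached by 5.46 to 8.66% of all tested genes in the 6 comparisons. It was reached by 0 to 3 of the junction partners and 0 to 2 of the desmosome genes. For the 6 repressors the count was 1 to 3, and for the 6 destruction complex genes 0 to 2. One of the latter was Axin2 in the TKO6-8-11 Mb (log2 fold change -0.36, adjusted p = 0.435, limma). Actn4, an actin crosslinker, and Ptpn1, a phosphatase, had the highest means of the partners over all 32 libraries, with 94.5 ± 11 and 52.8 ± 14 FPKM in the WT Fb (SD, n = 6). Their largest Mb difference from WT was 0.24 (log2, Ptpn1 in TKO6-8-11, adjusted p = 0.708, limma).

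Between WT tissues, 2 of 19 junction partners were lower in the Mb, a share near the 8.26% of all genes called. These were Lima1, an actin linker at alpha-catenin (7.56 ± 1.1 against 14.1 ± 1.7 FPKM, log2 fold change -0.82, adjusted p = 0.000205, limma), and Ajuba, a LIM protein (46.3 ± 3.5 against 56.2 ± 4.1, log2 fold change -0.27, adjusted p = 0.0324, limma). Of 4 desmosome genes tested 1 was lower, the desmosomal anchor Dsp (1.47 ± 0.55 against 4.82 ± 1.4, log2 fold change -1.23, adjusted p = 0.000844, limma). It was lower as well in TKO6-8-11 (-1.58, adjusted p = 0.0129, limma) and DKO8-11 (-1.26, adjusted p = 0.0307, limma). In the DKO6-8 Mb Dsp was 3.18 ± 0.51 (SD, n = 3), a log2 difference of 0.78 from the WT Mb that did not pass the test (limma). All 3 libraries had more Dsp than any WT Mb library, but how many of all tested genes lay apart this way was not counted. Among the 6 repressors 2 were lower in the WT Mb, Snai1 (-0.91, adjusted p = 0.00262, limma) and Twist1 (-1.08, adjusted p = 0.000286, limma). The 2 higher in the WT Mb were Zeb2 (0.86, adjusted p = 0.00572, limma) and Zeb1 (0.58, adjusted p = 0.05 as rounded, limma). In the destruction complex Axin2, a target as well as an inhibitor of Wnt signalling, was higher in the WT Mb (48.9 ± 5.1 against 23.2 ± 5.9, log2 fold change 1.07, adjusted p = 0.000159, limma), while Csnk1a1, the most abundant member, was not called at 0.03 (log2).

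The genes whose levels most resembled each member over the 32 libraries were listed by Pearson's r on log2(FPKM + 1), as a description. Those nearest Cdh1 were Cldn4 (0.95), Epcam (0.94), Prss8 (0.94), Cldn6 (0.94) and Dsg2 (0.94), and those nearest Cdh3 were Esrp1 (0.93), Dsg2 (0.91), Spint2 (0.91), Epcam (0.91) and Krt8 (0.91). For Ctnna2 they were Unc5c (0.81), Ednrb (0.80), Wnt3 (0.79), Epb41l4a (0.79) and Itgb8 (0.78). The closest gene was less close for Ctnna1 (Sipa1l1, 0.79), Ctnnd1 (Eri2, 0.76), Ctnnb1 (Tspan3, 0.73), Cdh2 (Hip1, 0.70), Ctnnd2 (Reep3, 0.68), Jup (Htra1, 0.60) and Cdh4 (Tyro3, 0.59). Among the members themselves, Cdh1 and Cdh3 went together within each tissue (r = 0.91 in the 16 Fb libraries and 0.87 in the 16 Mb libraries). Cdh2 and Ctnnd1 did so in the Fb (r = 0.82) but hardly in the Mb (r = 0.13). All of these share tissue, genotype and depth.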

How the data were processed

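Bulk RNA of Fb and Mb tissue was measured in 32 libraries. Directional reads were aligned by the authors to GRCm38 (mm10) with TopHat2, and the deposited FPKM per gene came from Cufflinks, which divides by transcript length and by mapped fragments. Tool versions and the annotation are not given in the sources used here. The authors' counts (HTSeq, tested in DESeq2) were not used here.

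Values of 65 repeated identifiers were summed, and names and positions follow GENCODE M21, in which 48218 of 48576 identifiers were found. FPKM of scarce genes come in steps of 1 fragment, and 771 genes with 1 transcript of 4000 bp or longer gave each library's depth that way (84.34 to 94.19% of the values up to 5 fragments were whole within 0.1), so a gene near 1 FPKM rests on few fragments and intervals are wide. Fragment numbers behind a gene are approximate. Of 496 library pairs, 0 held identical values. Whether a library is 1 embryo is not stated, and p-values measure the spread between libraries. No sequencing batch is given.

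Groups were tested with limma 3.58.1 (R 4.3.3, lmFit and eBayes with trend) on log2(FPKM + 1), keeping genes that averaged 1 FPKM or more over the libraries fitted. Adjusted p is Benjamini-Hochberg over all genes tested, at a threshold of 0.05, two-sided, and intervals are 95% intervals. Correlations with summed markers used 100000 permutations (NumPy 2.4.6 in Python 3.11.15). Protein identity came from translated transcripts aligned with Biopython 1.88.

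The members, lists and comparisons were chosen with earlier results of these data known. Named genes are the 10 members, the targeted genes, list genes past the threshold and up to 5 most similar genes of a member. Of the junction partners and of the destruction complex the 2 highest are named as well. The alternatives were no filter, at least 1 FPKM in every library, a pseudocount of 0.1 or of 5, scaling by median of ratios or by quantiles, no trend, grouping by record, pooled fits, a replicate block and leaving out each library. Leaving out both TKO6-8-11 replicate 3 libraries and the marker correlations were chosen after seeing the data.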

Additional observations from a re-analysis of the deposited data

Results flagged for a closer look

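In 4 to 6 libraries of a group, a single value apart from the rest was looked for in 52 sets of values (10 members and 3 targeted genes in the WT and TKO6-8-11 groups of both tissues), and chance gives about 1 in 20. There were 2 such values. Cdh4 in the TKO6-8-11 Fb was 9.19 FPKM in replicate 1, whereas the nearest of the other 3 libraries was at 3.66. Cdh6, a targeted gene, was 3.10 FPKM in the library labelled TKO6-8-11 Mb replicate 3, and the nearest of the others was at 0.388. Groups of 3 libraries were not examined in this way.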

How the results depend on the processing

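Among the mutant against WT comparisons and the interactions, 0 of 10 genes were called under every alternative run. In WT Mb against Fb 3 were called in each fit that left out a library (3 to 3), and 3 with the replicate block. Ctnnd2 passed besides with at least 1 FPKM in every library (adjusted p = 0.0344), where Cdh3 and Ctnna2 were not tested, without a trend (0.0224) and with all 8 groups in one fit (0.0253). In TKO6-8-11 Mb against Fb the main count was 2. It was 1 with at least 1 FPKM in every library, 1 to 2 when a library was left out and 0 without both replicate 3 libraries. The replicate block gave 1 there, Cdh3 (adjusted p = 0.0386), and Cdh1 was lost (0.0699). In DKO8-11 Mb against Fb the count was 1 with all 8 groups in one fit (Cdh1, adjusted p = 0.0255). The cause was not tested. Grouping by record exchanges the values of DKO8-11 and DKO6-8. Of 2680 member values under an alternative, 168 that were not called changed sign, and no called value did.

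Replicate numbers were not taken as pairs in the main fits, because the labels state no pairing of tissues. Not every correlation was above 0.1, a limit that does not settle whether the numbers are pairs. The main tissue contrasts and interactions thus treat Fb and Mb libraries as independent. Between tissues the data hint at a link. The correlation of deviations was 0.03 to 0.09 for Fb and Mb of WT (5 of 6 correlated best with their own number), 0.01 to 0.12 in TKO6-8-11 (3 of 4), 0.08 to 0.12 in DKO8-11 (3 of 3) and 0.03 to 0.14 in DKO6-8 (2 of 3), and -0.09 to 0.05 between mutants and WT (0 with their own number). Against WT the block joins libraries by number alone, across separate matings. WT numbers that no mutant library shares then add nothing to the contrast, so lower counts there do not show a pairing. In the Mb the block changed counts over all genes from 12 to 0 (TKO6-8-11), 12 to 1 (DKO8-11) and 5 to 1 (DKO6-8). In the Fb it changed them from 8 to 0, 10 to 2 and 5 to 4 in the same order. Over all alternatives these counts ranged from 0 to 52, 1 to 17, 1 to 12, 0 to 10 and 2 to 14, and from 2 to 15 (main 5) in the DKO6-8 Fb. Between tissues they ranged from 780 to 1317 in WT, 163 to 663 in TKO6-8-11, 68 to 542 in DKO8-11 and 26 to 362 in DKO6-8. For interactions they were 0 to 5, 0 to 1 and 0 to 5.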
